A study of Mus musculus with 11 samples.

Results

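A set of 10 macrophage genes was followed in the airway RNA of mice with an asthma exacerbation. The genes were chosen by name and found in the deposited table through their mouse Ensembl identifiers, which gave 10 of 10 members among 21899 genes. Cd68, Adgre1 and Csf1r mark macrophage identity, C1qa, C1qb and C1qc encode the chains of complement C1q, and Arg1, Mrc1, Cd163 and Marco are genes of alternative activation and scavenging.

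Macrophages take up particles, dying cells and microbes, and the lung holds alveolar macrophages in the air spaces, interstitial macrophages around airways and vessels, and monocyte-derived cells that enter during inflammation. CSF1R is the receptor for CSF1 and IL-34 and keeps many of these cells alive. C1q starts the classical complement pathway, is made largely by tissue macrophages and also tags dying cells for uptake. Alternative activation is the state induced by IL-4 and IL-13, the cytokines of allergic inflammation, and in mice arginase 1 and the mannose receptor are its usual markers.

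The samples were wild-type male BALB/c mice in 3 groups. PBS mice (3 libraries, numbered 1 to 3) were not sensitised and received saline alone. OVA/LPS/Vehicle mice (4 libraries, labelled 12, 34, 56 and 78) were sensitised with ovalbumin in alum, challenged with ovalbumin through the nose, given intranasal lipopolysaccharide and then treated with vehicle through the trachea. OVA/LPS/GGsTop mice (4 libraries, 1 to 4) had the same course with GGsTop, an inhibitor of γ-glutamyl transferase, in place of vehicle. The sources used here do not say whether a library is 1 animal or a pool, so that p-values measure the spread between these libraries. The comparison of OVA/LPS/Vehicle with PBS covers sensitisation, ovalbumin, lipopolysaccharide and vehicle together, which these groups cannot tell apart. That of OVA/LPS/GGsTop with OVA/LPS/Vehicle asks what the inhibitor changed. The comparisons share libraries and are not independent of each other.

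Values are FPKM, a fragment count scaled to transcript length and library size, which can be compared between genes. The steps between low values implied totals of 14513137 to 18632383 fragments per library. The labels name trachea while the methods describe airway without it, and the cartilage genes Acan and Matn1 were each listed at 0 in 3 of the 11 libraries and reached 23.0 and 9.99 FPKM in others. Scgb1a1, the secretoglobin of club cells, was between 26140 and 47900 FPKM, and Sftpc, a surfactant protein of the alveoli, was between 3541 and 12500 FPKM, so both airway and alveolar tissue were present. PBS 3 stood apart. Its values rose with the GC content of the transcript by 0.53 log2 units per 10 GC points, against 0.06 and 0.05 in PBS 1 and 2, −0.26 to −0.19 in OVA/LPS/Vehicle and 0.05 to 0.11 in OVA/LPS/GGsTop. Results are therefore also given without PBS 3 and after a correction for GC content.

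The mean level over the 11 libraries was highest for C1qa at 58.1 FPKM, followed by Cd68 at 36.1, C1qb at 36.0, Csf1r at 22.7, C1qc at 22.4, Mrc1 at 15.0 and Adgre1 at 8.56 FPKM. Cd163 at 2.56, Arg1 at 1.54 and Marco at 1.49 FPKM were far lower. The means of Cd68 and C1qb, of Csf1r and C1qc, and of Arg1 and Marco were nearly equal, and the library ranges of every pair of neighbours in this order overlapped. All 10 genes had fragments in every library, and all 10 passed the filter of a mean of 0.5 FPKM that left 14004 genes to test.

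**Figure D1:**
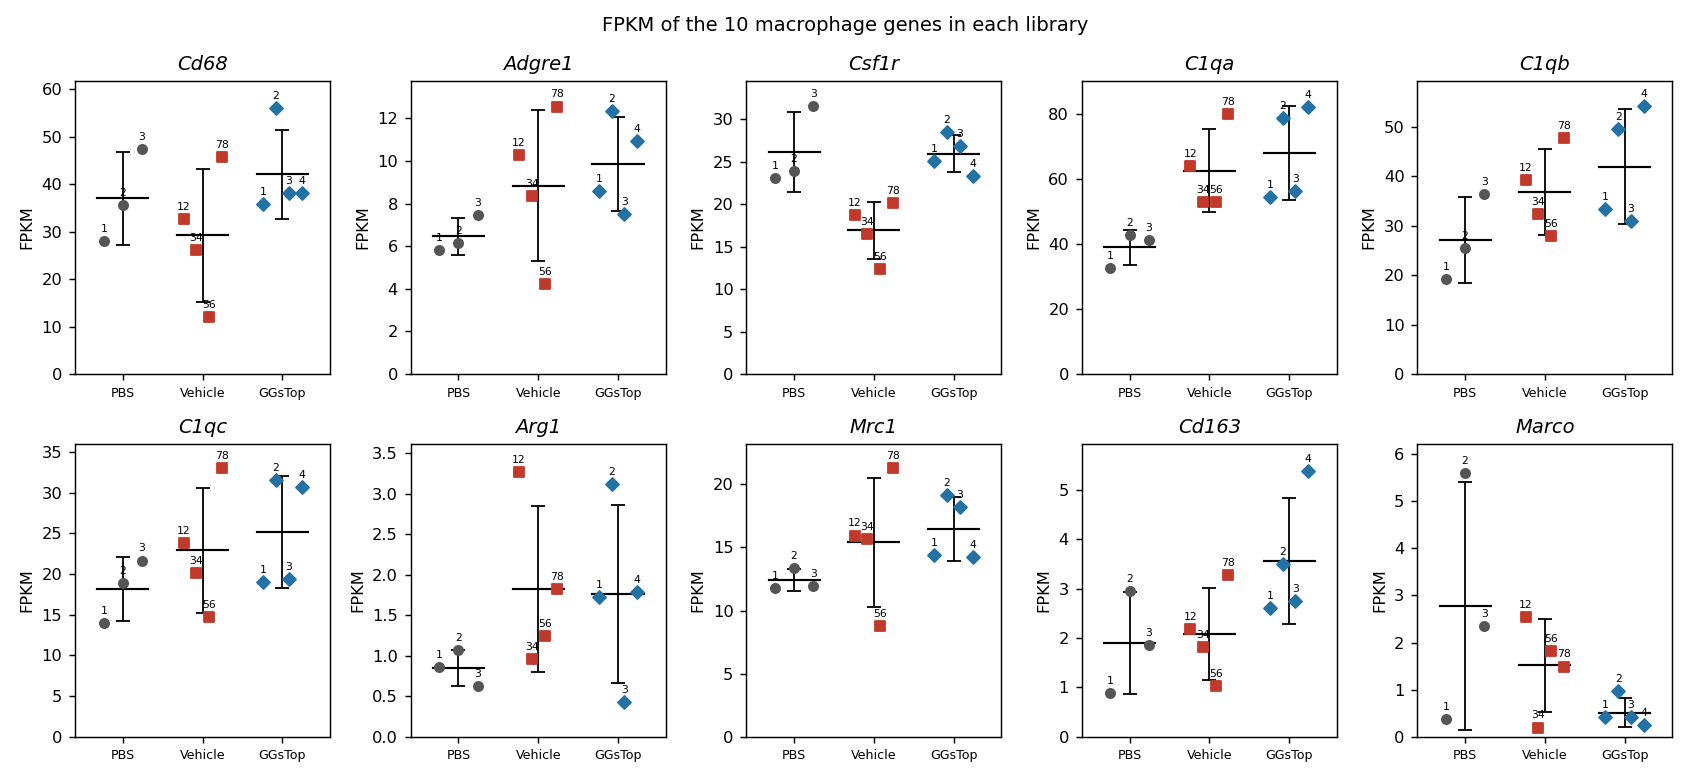
FPKM of the 10 macrophage genes (vertical axes, each starting at 0) in PBS (3 libraries), OVA/LPS/Vehicle (4) and OVA/LPS/GGsTop (4). Points are libraries with their numbers, lines are means and bars are 1 SD. The 4 Vehicle points of Csf1r lie below those of both other groups, and the 3 PBS points of C1qa lie below those of both other groups.

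Among the 10 genes, 2 were called in OVA/LPS/Vehicle against PBS, where 38.0% of all genes tested were called. Of these, 1 was higher and 1 lower, beside 15.9% and 22.1% of all genes. In OVA/LPS/GGsTop against OVA/LPS/Vehicle, 1 member was called and was higher, beside 8.71% of all genes called, 6.9% higher and 1.81% lower. In OVA/LPS/GGsTop against PBS, 0 members were called, beside 2.88% of all genes, 2.06% higher and 0.821% lower. A call is an adjusted p under 0.05 in limma over all 14004 genes. The share of members called was thus below the background in the first comparison, and 1 of 10 is close to it in the second. After GC correction the members called were 2, 0 and 1 in the 3 comparisons, beside 20.8%, 0.4% and 4.25% of all genes, and with the form of the correction that kept library means they were again 2, 0 and 1, beside 21.5%, 2.24% and 4.35%. Without PBS 3, 1 member was called in OVA/LPS/Vehicle against PBS and 0 in OVA/LPS/GGsTop against PBS, beside 21.9% and 0.4% of all genes. In bulk RNA, fewer cells of a type and less RNA per cell cannot be told apart.

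Csf1r was lower in OVA/LPS/Vehicle than in PBS and higher in OVA/LPS/GGsTop than in OVA/LPS/Vehicle. Csf1r (ENSMUSG00000024621) was at 23.0, 23.9 and 31.6 FPKM in PBS 1 to 3. In OVA/LPS/Vehicle 12, 34, 56 and 78 it was at 18.7, 16.5, 12.4 and 20.1 FPKM. In OVA/LPS/GGsTop 1 to 4 it was at 25.1, 28.5, 26.9 and 23.4 FPKM. Every OVA/LPS/Vehicle library lay below every library of the other groups, and the ranges of PBS and OVA/LPS/GGsTop overlapped. The log2 difference of OVA/LPS/Vehicle from PBS was −0.61 (SE 0.16; limma adjusted p = 0.0151), a level 0.656 times that of PBS on the FPKM + 1 scale. OVA/LPS/GGsTop exceeded OVA/LPS/Vehicle by 0.61 (SE 0.15; limma adjusted p = 0.0351), or 1.52 times. Between OVA/LPS/GGsTop and PBS the difference was −0.00 with a 95% interval from −0.36 to 0.35.

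Both calls on Csf1r were lost under other settings while their direction held. Without PBS 3, the fall in OVA/LPS/Vehicle was −0.47 (limma adjusted p = 0.0636), and with the GC correction −0.39 (limma adjusted p = 0.0708). The rise with GGsTop was 0.42 after GC correction (limma adjusted p = 0.118) and 0.47 without OVA/LPS/Vehicle 56, the lowest library (limma adjusted p = 0.0984). It was also not called without OVA/LPS/Vehicle 34 or 78 or without OVA/LPS/GGsTop 1, 2 or 3, with limma adjusted p-values from 0.0544 to 0.0932.

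Cd68, a lysosomal glycoprotein, also had its lowest mean in OVA/LPS/Vehicle, but the groups overlapped. It was at 28.1, 35.6 and 47.5 FPKM in PBS 1 to 3 and at 32.7, 26.2, 12.1 and 45.9 FPKM in OVA/LPS/Vehicle 12 to 78. In OVA/LPS/GGsTop 1 to 4 it was at 35.9, 56.1, 38.2 and 38.2 FPKM. The lowest of all 11 libraries was OVA/LPS/Vehicle 56 and the highest OVA/LPS/GGsTop 2. The log2 difference from PBS was −0.44 (SE 0.35) in OVA/LPS/Vehicle and 0.19 (SE 0.35) in OVA/LPS/GGsTop, and between the treated groups it was 0.63 (SE 0.33) with GGsTop over vehicle. None of the 3 passed the test.

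Adgre1, which encodes the F4/80 antigen, was at 5.80, 6.14 and 7.46 FPKM in PBS and at 10.3, 8.34, 4.22 and 12.6 FPKM in OVA/LPS/Vehicle 12, 34, 56 and 78. With GGsTop it was at 8.59, 12.4, 7.50 and 10.9 FPKM. All OVA/LPS/GGsTop libraries lay above all PBS libraries, by a narrow margin between 7.46 and 7.50 FPKM, and the log2 difference was 0.52 (95% interval −0.08 to 1.13; limma adjusted p = 0.308). OVA/LPS/Vehicle 56 was again the lowest of all libraries. Without it, the difference of OVA/LPS/Vehicle from PBS moved from 0.32 (limma adjusted p = 0.364) to 0.60 (limma adjusted p = 0.0435). Without OVA/LPS/Vehicle 78, the highest library, it was 0.14 (limma adjusted p = 0.700), and 6 of the 7 fits without 1 library gave no call.

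Of the C1q chains, C1qa rose in OVA/LPS/Vehicle. C1qa (ENSMUSG00000036887) was at 32.8, 42.9 and 41.2 FPKM in PBS 1 to 3. In OVA/LPS/Vehicle 12 to 78 it was at 64.1, 53.0, 53.0 and 79.9 FPKM. In OVA/LPS/GGsTop 1 to 4 it was at 54.5, 78.7, 56.4 and 82.3 FPKM. All 8 libraries of mice given ovalbumin and lipopolysaccharide lay above the 3 PBS libraries, and the ranges of vehicle and GGsTop overlapped almost wholly. The log2 difference of OVA/LPS/Vehicle from PBS was 0.66 (SE 0.19; limma adjusted p = 0.0214), or 1.58 times. That of OVA/LPS/GGsTop from PBS was 0.77 (SE 0.19; unadjusted p = 0.00182, limma adjusted p = 0.0541), just above the threshold. Between OVA/LPS/GGsTop and OVA/LPS/Vehicle it was 0.12 with a 95% interval from −0.27 to 0.50.

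The rise of C1qa was called without PBS 3 (0.70, limma adjusted p = 0.0494) and after GC correction (1.03, limma adjusted p = 0.0104). It was not called without PBS 1 (0.54, limma adjusted p = 0.0759) or without OVA/LPS/Vehicle 78 (0.53, limma adjusted p = 0.0556). Against PBS, the difference of OVA/LPS/GGsTop became a call after GC correction (0.85, limma adjusted p = 0.0277) and was 0.67 with the replicate number as a block (limma adjusted p = 0.0753).

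C1qb and C1qc gave positive differences from PBS without a call. C1qb was at 19.2, 25.6 and 36.4 FPKM in PBS 1 to 3, at 39.1, 32.4, 27.9 and 47.7 FPKM in OVA/LPS/Vehicle 12 to 78 and at 33.3, 49.5, 30.9 and 54.1 FPKM in OVA/LPS/GGsTop 1 to 4. PBS 3 was the one PBS library that reached into the range of the treated groups. The log2 difference of OVA/LPS/Vehicle from PBS was 0.45 (SE 0.26; limma adjusted p = 0.181) and 0.78 after GC correction (limma adjusted p = 0.0319). That of OVA/LPS/GGsTop from PBS was 0.62 (SE 0.26; unadjusted p = 0.0337, limma adjusted p = 0.205).

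C1qc was at 13.9, 18.9 and 21.7 FPKM in PBS 1 to 3, at 23.8, 20.2, 14.8 and 33.0 FPKM in OVA/LPS/Vehicle 12 to 78 and at 19.0, 31.6, 19.4 and 30.7 FPKM in OVA/LPS/GGsTop 1 to 4. The groups overlapped in every comparison. The log2 differences from PBS were 0.28 (SE 0.27) for OVA/LPS/Vehicle and 0.43 (SE 0.27) for OVA/LPS/GGsTop. For C1qb and C1qc, OVA/LPS/GGsTop differed from OVA/LPS/Vehicle by 0.17 (95% interval −0.35 to 0.69) and 0.15 (−0.39 to 0.69).

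C1qb and C1qc lie next to each other, with C1qa, on mouse chromosome 4. Over the 11 libraries their log2 levels had a Pearson r of 0.94 with each other, and C1qa had 0.90 with C1qb and 0.85 with C1qc. These libraries share their treatment, so the coefficients are given as a description. Since the pair moved together, their promoter windows from RefSeq (GRCm38.p6), 250 bases before to 50 bases after the annotated start, are shown here, with the sequence motifs searched for in capitals. Windows on the chromosome of Csf1r were left out. C1qa, Arg1 and Adgre1 had no window in the set at hand, and windows were used for 6 of the 10 genes.
C1qb, chr4:136886151-136886450, minus strand: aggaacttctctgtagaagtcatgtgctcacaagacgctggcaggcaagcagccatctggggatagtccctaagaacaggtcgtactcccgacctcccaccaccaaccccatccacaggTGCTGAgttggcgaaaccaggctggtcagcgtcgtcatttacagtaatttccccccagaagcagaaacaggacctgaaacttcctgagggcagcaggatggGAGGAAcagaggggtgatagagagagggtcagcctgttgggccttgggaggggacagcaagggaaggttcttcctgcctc
C1qc, chr4:136892865-136893164, minus strand: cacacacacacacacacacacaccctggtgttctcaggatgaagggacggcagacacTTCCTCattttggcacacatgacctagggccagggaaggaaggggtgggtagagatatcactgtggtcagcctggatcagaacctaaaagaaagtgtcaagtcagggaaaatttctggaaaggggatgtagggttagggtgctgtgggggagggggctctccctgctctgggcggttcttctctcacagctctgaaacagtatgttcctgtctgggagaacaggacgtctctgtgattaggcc

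Motifs of 3 factors were searched on both strands, and a match describes letters, not a site. GAGGAA, the core that the myeloid factor PU.1 binds, had 1 match in C1qb and 1 in C1qc, where the capitals show its reverse complement. It occurred in 5 of the 6 windows used and in 28.3% of all 32851 promoter windows of this length. TGCTGA, the half-site of MAF factors, had 1 match in C1qb and occurred in 19.5% of all windows. The spaced palindrome of STAT6, TTC and GAA around a spacer of any 4 bases, had 0 matches in the 6 windows and occurred in 6.95% of all.

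**Figure D2:**
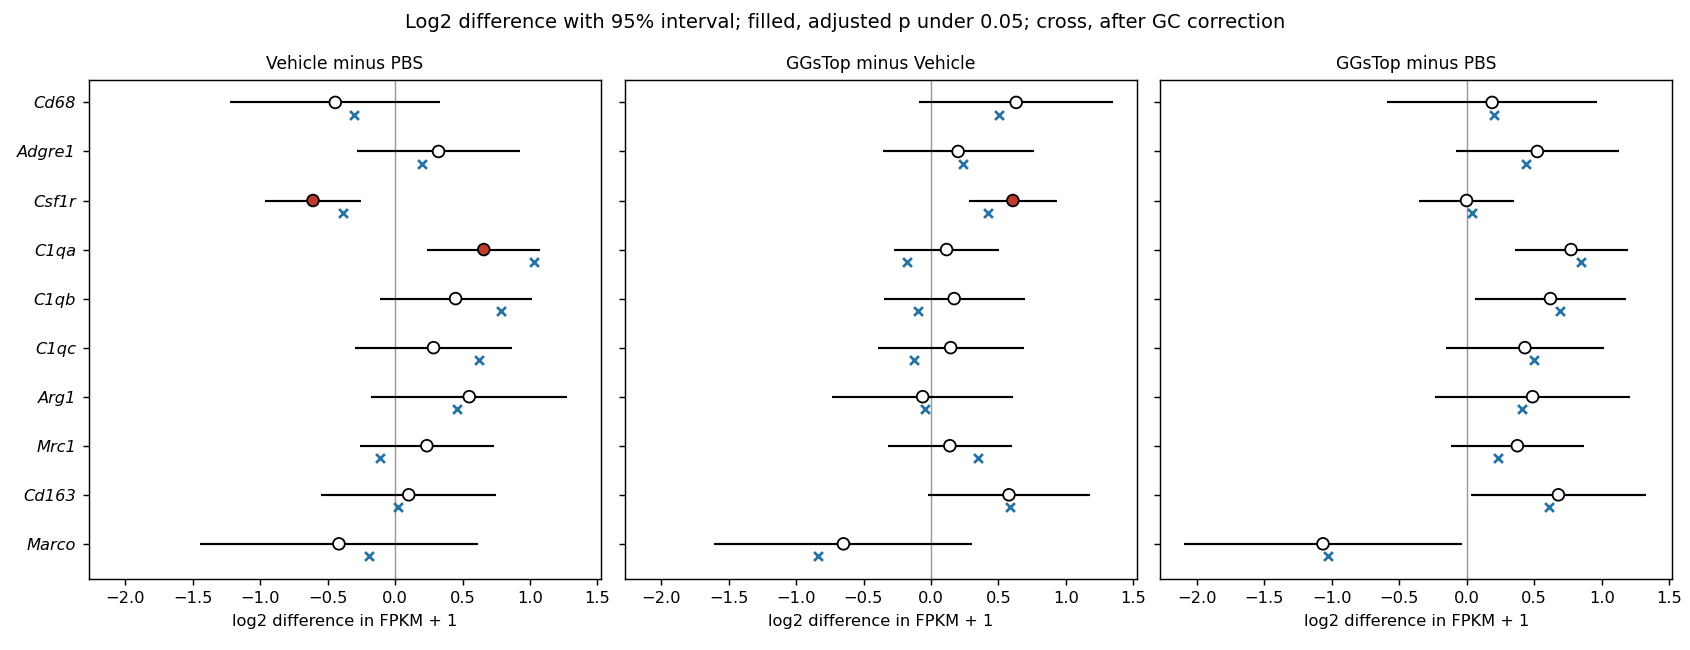
Log2 differences in FPKM + 1 of the 10 genes (horizontal axis) with 95% intervals in 3 comparisons. Filled points passed an adjusted p of 0.05 and crosses are the values after GC correction. Csf1r and C1qa are filled in Vehicle minus PBS, with opposite signs. Csf1r alone is filled in GGsTop minus Vehicle, where the crosses of the C1q chains change sign. No point is filled in GGsTop minus PBS.

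Each C1q chain was also set against the identity genes, as the log2 ratio of its FPKM to the geometric mean of Cd68, Adgre1 and Csf1r. These ratios are a description, with no test. For C1qa the ratio was 1.08, 1.30 and 0.88 in PBS 1 to 3, 1.80, 1.79, 2.62 and 1.82 in OVA/LPS/Vehicle 12 to 78 and 1.46, 1.54, 1.51 and 1.94 in OVA/LPS/GGsTop 1 to 4. PBS was lowest, and OVA/LPS/GGsTop 4 alone of its group reached into the range of OVA/LPS/Vehicle. For C1qb it ran from 0.31 to 0.70 in PBS, from 1.08 to 1.70 in OVA/LPS/Vehicle and from 0.65 to 1.34 in OVA/LPS/GGsTop. For C1qc it ran from −0.16 to 0.13, from 0.36 to 0.78 and from −0.06 to 0.52. All 4 OVA/LPS/Vehicle libraries therefore had more of each C1q chain, relative to this geometric mean, than any PBS library. The highest of all was OVA/LPS/Vehicle 56, in which the identity genes were lowest. The ratio also depends on the genes in that mean. Csf1r and Cd68 had their lowest group means in OVA/LPS/Vehicle (16.9 and 29.2 FPKM, against 26.2 and 37.1 in PBS). Adgre1 did not, at 8.84 against 6.47 FPKM. Relative to Adgre1 alone, the separation of OVA/LPS/Vehicle from PBS did not hold. OVA/LPS/Vehicle 12 had C1qa, C1qb and C1qc at 64.1, 39.1 and 23.8 FPKM with Adgre1 at 10.3 FPKM. PBS 2 had them at 42.9, 25.6 and 18.9 FPKM with Adgre1 at 6.14 FPKM, and so more of each chain relative to Adgre1. Other ratios to single identity genes are not given.

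**Figure D3:**
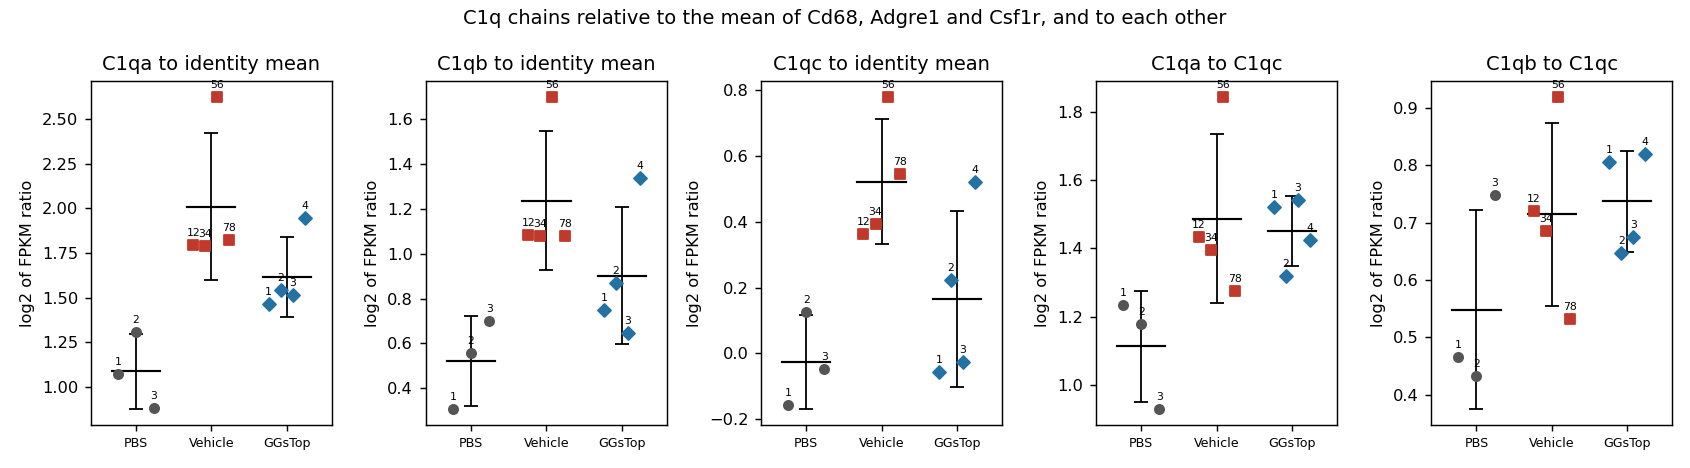
Log2 ratios of FPKM (vertical axes, not starting at 0) of the C1q chains to the mean of Cd68, Adgre1 and Csf1r, and of C1qa and C1qb to C1qc, by library. Points are libraries with their numbers, lines are means and bars are 1 SD. In the first 3 panels all Vehicle points lie above all PBS points, and Vehicle 56 is the highest.

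The genes of alternative activation and scavenging gave no call. Arg1, arginase 1, which splits arginine to ornithine and urea, was at 0.86, 1.07 and 0.63 FPKM in PBS 1 to 3. In OVA/LPS/Vehicle 12 to 78 it was at 3.27, 0.97, 1.24 and 1.83 FPKM, and in OVA/LPS/GGsTop 1 to 4 at 1.73, 3.12, 0.43 and 1.79 FPKM. Each treated group held 1 library above 3 FPKM and overlapped with PBS. These values rest on 15 to 113 fragments per library. The log2 differences were 0.55 (95% interval −0.18 to 1.27) for OVA/LPS/Vehicle against PBS and −0.06 (−0.73 to 0.61) between the treated groups, GGsTop minus vehicle.

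Mrc1, the mannose receptor CD206, was at 11.8, 13.4 and 11.97 FPKM in PBS 1 to 3 and at 15.9, 15.6, 8.77 and 21.3 FPKM in OVA/LPS/Vehicle 12 to 78. With GGsTop it was at 14.4, 19.1, 18.2 and 14.2 FPKM, above PBS in all 4 libraries. The log2 difference of OVA/LPS/GGsTop from PBS was 0.37 (95% interval −0.12 to 0.87; limma adjusted p = 0.368). OVA/LPS/Vehicle 56 was the lowest of all libraries, and without it the difference of OVA/LPS/Vehicle from PBS went from 0.24 (limma adjusted p = 0.418) to 0.46 (limma adjusted p = 0.0479). Without OVA/LPS/Vehicle 78, the highest library, it was 0.07 (limma adjusted p = 0.816), and 6 of the 7 fits without 1 library gave no call. After GC correction it was −0.11 (limma adjusted p = 0.745).

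Cd163, a scavenger receptor for haemoglobin bound to haptoglobin, was at 0.89, 2.94 and 1.86 FPKM in PBS. It was at 2.19, 1.82, 1.03 and 3.27 FPKM in OVA/LPS/Vehicle and at 2.62, 3.50, 2.74 and 5.37 FPKM in OVA/LPS/GGsTop. The ranges overlapped in every comparison. OVA/LPS/GGsTop exceeded PBS by 0.68 (SE 0.30; unadjusted p = 0.0415, limma adjusted p = 0.222) and OVA/LPS/Vehicle by 0.58 (SE 0.27; limma adjusted p = 0.176).

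Marco, a scavenger receptor for bacteria and particles, varied most, with a highest library 28.4 times the lowest. It was at 0.38, 5.60 and 2.34 FPKM in PBS 1 to 3, at 2.55, 0.20, 1.82 and 1.49 FPKM in OVA/LPS/Vehicle 12 to 78 and at 0.41, 0.97, 0.43 and 0.25 FPKM in OVA/LPS/GGsTop 1 to 4. All OVA/LPS/GGsTop libraries were under 1 FPKM, and so were PBS 1 and OVA/LPS/Vehicle 34. The values rest on 6 to 167 fragments per library. The log2 difference of OVA/LPS/GGsTop from PBS was −1.07 (SE 0.47; unadjusted p = 0.0441, limma adjusted p = 0.230), and from OVA/LPS/Vehicle it was −0.65 (SE 0.44; limma adjusted p = 0.326).

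Between OVA/LPS/GGsTop and PBS, 4 of the 10 genes had an unadjusted p under 0.05 (C1qa, C1qb, Cd163 and Marco), as did 20.5% of all genes tested, and 0 passed the adjusted test in limma or in voom on the recovered fragments. At the same unadjusted threshold there were 2 members beside 49.6% of all genes in OVA/LPS/Vehicle against PBS and 1 beside 30.8% between the treated groups. Of all genes tested, 14.8% had ranges that did not overlap in this comparison, against 3 of the 10 members (C1qa, Adgre1 and Mrc1). That share was 44.1% in OVA/LPS/Vehicle against PBS, where it held for 2 members, and 29.7% in OVA/LPS/GGsTop against OVA/LPS/Vehicle, where it held for 1. PBS and OVA/LPS/GGsTop share library numbers, but the sources used here do not say that a number marks a shared animal or batch. With the replicate number as a block, 0.443% of all genes were called and again 0 members. That fit also left out OVA/LPS/GGsTop 4 and all OVA/LPS/Vehicle libraries, so that the block was not its only change. The median log2 difference of the 10 genes was 0.26, 0.16 and 0.46 in the 3 comparisons, beside −0.01, 0.03 and 0.01 over all genes tested.

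Some other genes of alternative activation changed by more than any member. Of 19 tested, 5 rose and 3 fell in OVA/LPS/Vehicle against PBS. In that comparison 38.0% of all genes tested were called, 15.9% higher and 22.1% lower. These shares, with 8.71% called between the treated groups and 2.88% between GGsTop and PBS, are the background for this and the later gene lists. Whether any list differed from its background was not tested. Retnla, the resistin-like molecule FIZZ1 made by macrophages and by airway epithelium, was at 36.7 to 74.8 FPKM in PBS, at 2093 to 4764 FPKM in OVA/LPS/Vehicle and at 1188 to 4025 FPKM in OVA/LPS/GGsTop. It rose by 5.98 (SE 0.42; limma adjusted p = 0.000192) in OVA/LPS/Vehicle and by 5.62 in OVA/LPS/GGsTop (SE 0.42; limma adjusted p = 0.000266). Chil3, the chitinase-like protein Ym1, was at 44.7 to 72.7, 131.0 to 734.6 and 269.5 to 683.2 FPKM in the 3 groups, and its log2 differences from PBS were 2.65 (SE 0.53; limma adjusted p = 0.00569) and 2.85 (SE 0.53; limma adjusted p = 0.0215). Chil4, Socs2 and Tfrc were the other genes that rose in OVA/LPS/Vehicle, and Il4ra, Stab1 and Tgm2 those that fell; Chil4, Socs2, Tfrc, Il4ra and Tgm2 are named after their values were seen. Chil3 and Chil4 are close relatives and could share reads. Against PBS, Chil3, Chil4 and Retnla rose and 0 fell in OVA/LPS/GGsTop, and against OVA/LPS/Vehicle Stab1 alone rose. The call on Chil3 in OVA/LPS/GGsTop was lost in 4 of 7 fits without 1 library of these groups, those without PBS 1, PBS 3, OVA/LPS/GGsTop 1 or OVA/LPS/GGsTop 2 (limma adjusted p up to 0.0912).

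Stab1 and Lrp1, like Csf1r, were lowest in OVA/LPS/Vehicle. Stab1, a scavenger receptor of resident macrophages and some endothelium, was at 14.6 to 26.7 FPKM in PBS, 7.01 to 9.21 FPKM in OVA/LPS/Vehicle and 15.2 to 21.9 FPKM in OVA/LPS/GGsTop. It fell by 1.11 in OVA/LPS/Vehicle (SE 0.19; limma adjusted p = 0.00399) and rose by 1.04 with GGsTop (SE 0.18; limma adjusted p = 0.0183). Lrp1, a receptor that takes part in the uptake of C1q-tagged cells, was at 37.1 to 67.8, 13.8 to 21.1 and 33.9 to 38.1 FPKM, with differences of −1.35 (SE 0.19; limma adjusted p = 0.00337) and 0.98 (SE 0.18; limma adjusted p = 0.0190). After GC correction the rises with GGsTop were 0.77 for Stab1 and 0.70 for Lrp1, each with a limma adjusted p of 0.0538, and with library means kept the limma adjusted p-values were 0.0317 and 0.0323. Of the 8 fits that left out 1 library of the treated groups, 4 lost the call for each gene, with limma adjusted p-values up to 0.0714 and 0.0718.

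Among 16 tested genes of interstitial and resident macrophages, 3 rose (Cd14, Maf and Ms4a7) and 4 fell (Cx3cr1, Gas6, Mertk and Stab1) in OVA/LPS/Vehicle against PBS. With GGsTop, Gas6 and Stab1 rose over OVA/LPS/Vehicle. Of 14 alveolar macrophage genes, 3 rose (Chil3, Plet1 and Pparg) and 1 fell (Fabp1) in OVA/LPS/Vehicle, and 0 were called between OVA/LPS/GGsTop and OVA/LPS/Vehicle. Pparg, which fat cells also express, was at 6.68 to 13.7 FPKM in OVA/LPS/Vehicle and 3.13 to 6.09 FPKM in OVA/LPS/GGsTop (difference −0.79, SE 0.24; limma adjusted p = 0.0567). The rise of Pparg and the fall of Cx3cr1 in OVA/LPS/Vehicle were lost in 5 and 6 of 7 fits without 1 library of these groups, with the highest limma adjusted p-values, 0.157 and 0.149, without PBS 3. After GC correction the limma adjusted p of Cx3cr1 was 0.0887. Among these genes, those other than Chil3, Stab1, Cx3cr1 and Pparg were named after their values were seen.

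Of 11 monocyte genes, Ccr2 and Chil3 rose and Nr4a1 fell in OVA/LPS/Vehicle. Ccr2, the receptor through which monocytes leave the bone marrow, was at 5.18 to 7.60 FPKM in PBS, 6.98 to 10.4 FPKM in OVA/LPS/Vehicle and 4.36 to 5.84 FPKM in OVA/LPS/GGsTop. It fell by 0.78 with GGsTop (SE 0.15; limma adjusted p = 0.0198), and after GC correction the difference was −0.44 (limma adjusted p = 0.183). Its rise over PBS in OVA/LPS/Vehicle went from 0.53 (limma adjusted p = 0.0222) to −0.01 after GC correction (limma adjusted p = 0.982) and was lost in 5 of 7 fits without 1 library (limma adjusted p up to 0.0774). Of the 8 fits without 1 library of the treated groups, 4 lost the call on its fall with GGsTop. Of 16 classical activation genes, Marcks and Ptgs2 rose and Il12a, Nos2 and Socs3 fell in OVA/LPS/Vehicle, and Il12a alone fell in OVA/LPS/GGsTop against PBS (−0.74, SE 0.17; limma adjusted p = 0.0410). That call was lost in 5 of 7 fits without 1 library of these groups (limma adjusted p up to 0.133, without PBS 1) and with the replicate block (−0.66, limma adjusted p = 0.117). Ptgs2, cyclooxygenase 2, rose by 0.77 in OVA/LPS/Vehicle (SE 0.17; limma adjusted p = 0.00735), and after GC correction its difference was 0.25 (limma adjusted p = 0.250).

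Nos2, the inducible nitric oxide synthase that competes with arginase for arginine, was at 2.37 to 4.41 FPKM in PBS, at most 2.17 FPKM in OVA/LPS/Vehicle and 1.28 to 2.14 FPKM in OVA/LPS/GGsTop. It fell by 0.80 in OVA/LPS/Vehicle (SE 0.20; limma adjusted p = 0.0117), with limma adjusted p-values of 0.0528 without PBS 3 and 0.0588 after GC correction. Of 13 tested genes of arginine metabolism, Azin1 and Sms rose and Nos2 fell in that comparison, and Slc7a2, a transporter of arginine, rose in OVA/LPS/GGsTop against PBS (0.68, SE 0.16; limma adjusted p = 0.0477). That call was lost in 6 of 7 fits without 1 library of these groups (limma adjusted p up to 0.149, without PBS 3), after GC correction (0.54, limma adjusted p = 0.0842) and with the replicate block (0.75, limma adjusted p = 0.0566). Among these 13, Ass1 had the smallest p between the treated groups and was not called (0.39, SE 0.11, limma adjusted p = 0.0555). Of 14 genes of the CSF1R and CSF2 axis, Runx1 rose in OVA/LPS/Vehicle against PBS (0.74, SE 0.15, limma adjusted p = 0.00543). Csf3r and Il34, a ligand of CSF1R, fell there, and 0 were called in the other comparisons. Csf2ra had the smallest p of this list between the treated groups (GGsTop minus vehicle 0.86, SE 0.29, limma adjusted p = 0.0766).

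Of 11 genes of the C1 complex and C1q binding, C1qbp rose and C4b, Lrp1 and Serping1 fell in OVA/LPS/Vehicle, while Lrp1 and Serping1, the inhibitor of C1, rose with GGsTop. Cd93 had the smallest p of these genes in OVA/LPS/GGsTop against PBS and was not called (−0.47, SE 0.22; limma adjusted p = 0.248). Of 20 genes of phagocytosis and lysosomes, Cd36, Ctss, Fcgr2b and Lamp2 rose and Axl, Grn and Lyz1 fell in OVA/LPS/Vehicle. With GGsTop, Axl rose and Cd36 fell. Fcgr2b, the inhibitory receptor for IgG, was at 5.01 to 5.48 FPKM in PBS and at 6.95 to 12.6 FPKM in OVA/LPS/Vehicle (0.79, SE 0.20; limma adjusted p = 0.0118), a call lost after GC correction (0.57, limma adjusted p = 0.0604). Cd36, a receptor for lipids that fat and endothelium also express, was at 334.6 to 393.6 FPKM in OVA/LPS/Vehicle and 191.0 to 252.1 FPKM in OVA/LPS/GGsTop (−0.74, SE 0.16; limma adjusted p = 0.0283), and after GC correction the limma adjusted p was 0.108. Its fall was lost in 7 of the 8 fits without 1 library, and its rise over PBS in OVA/LPS/Vehicle (0.49, limma adjusted p = 0.0491) was −0.09 after GC correction (limma adjusted p = 0.598). Genes of the last 3 paragraphs given without values were named after their values were seen.

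**Figure D4:**
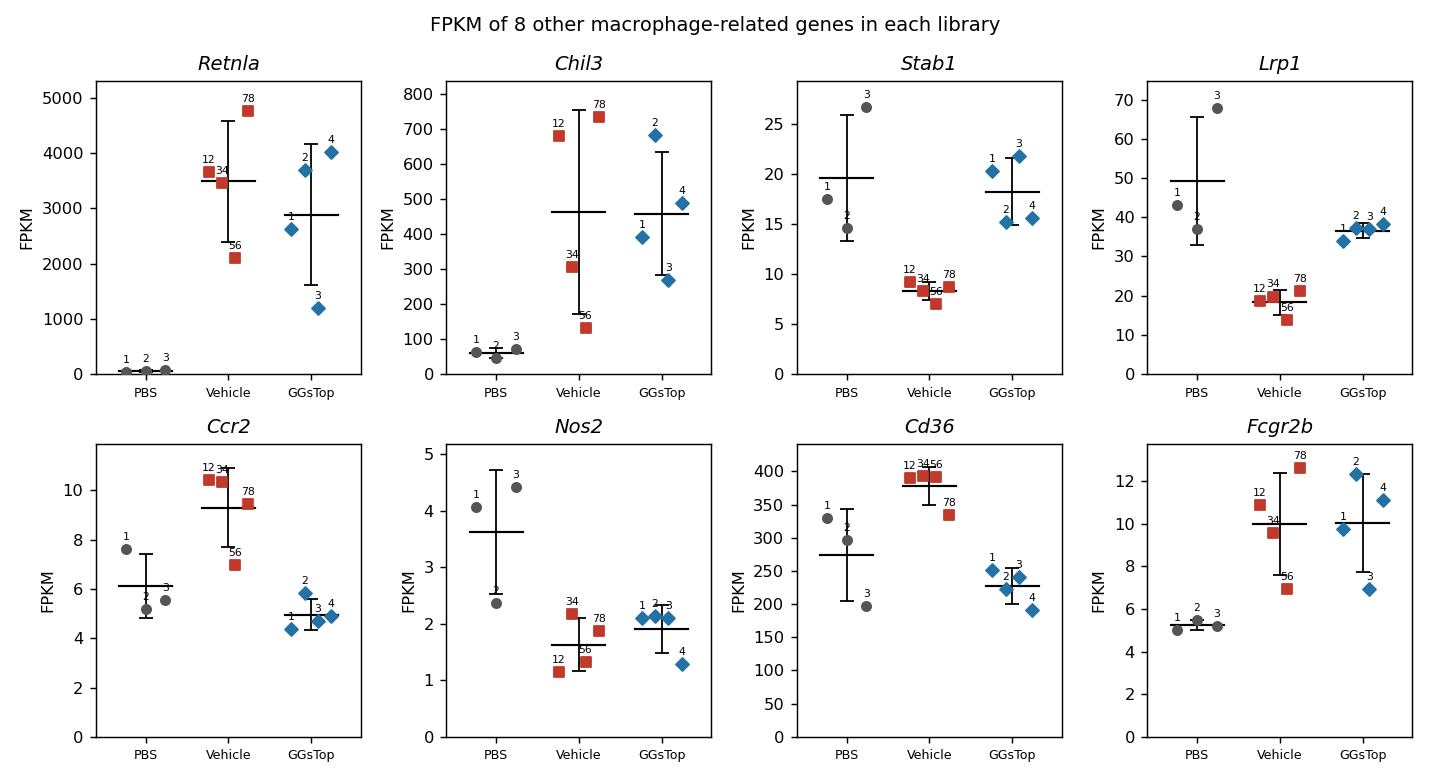
FPKM of 8 other macrophage-related genes (vertical axes, each starting at 0) by library in the 3 groups. Points are libraries with their numbers, lines are means and bars are 1 SD. Retnla is under 75 FPKM in PBS and at 1188 FPKM or more elsewhere, and the Vehicle points of Stab1 and Lrp1 lie below those of both other groups.

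For each member the genes with the most similar log2 levels over the 11 libraries were sought. For C1qa they were C1rb (r = 0.99), Ccl8 (0.93) and Cd209e (0.93), for C1qb they included Mrgpre (0.91) and C1rb (0.90), and for C1qc Ctsb (0.90) and C3 (0.90). C1rb could share reads with its relative C1ra and is uncertain. For Csf1r they were Tmem104 (0.97), Axl (0.97) and Arl10 (0.97), for Cd68 Nfam1 (0.95), Anpep (0.94) and Naaa (0.93), and for Adgre1 Mgl2 (0.92), Rassf4 (0.91) and Retnlg (0.91). For Mrc1 they were Mpeg1 (0.92), Pstpip2 (0.90) and Il33 (0.88), for Cd163 Sulf2 (0.95), Dok7 (0.95) and Cpz (0.94), for Arg1 Cd80 (0.87), Tigit (0.87) and Nccrp1 (0.87), and for Marco Sash3 (0.89), Cd72 (0.88) and Ltb (0.87). Csf1r and C1qa, called in opposite directions in OVA/LPS/Vehicle, had an r of −0.07, and Adgre1 had 0.92 with C1qc. The libraries share treatment and dissection, so that these coefficients describe these libraries.

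Markers of other tissues varied within and between the groups. Among the sums of this paragraph, only the endothelial and alveolar epithelial ones separated any groups, PBS from OVA/LPS/Vehicle. The summed FPKM of 5 endothelial genes was 885.3 to 1636 in PBS, 643.5 to 810.6 in OVA/LPS/Vehicle and 448.2 to 1043 in OVA/LPS/GGsTop, and Cdh5, Cldn5 and Kdr fell in OVA/LPS/Vehicle. That of 8 alveolar epithelial genes was 10430 to 16730, 5432 to 8923 and 4810 to 12220, with Ager, Aqp5 and Sftpb lower in OVA/LPS/Vehicle. Csf1r, Stab1 and Lrp1 fell in the same comparison. Heart muscle genes summed to 6.36 to 1342 FPKM in PBS and 386.0 to 1866 FPKM elsewhere, fat genes to 27.3 to 293.7, 208.7 to 639.2 and 18.4 to 349.7 FPKM, skeletal muscle genes to 6.49 to 61.1, 41.7 to 133.3 and 16.8 to 81.0 FPKM, and cartilage genes to between 0.22 and 61.0 FPKM. Thyroid and parathyroid genes reached 97.5, 266.6 and 536.8 FPKM in OVA/LPS/Vehicle 12, 34 and 56 and were at most 2.07 FPKM elsewhere. Marker genes named as changed were named after their values were seen. The part of tissue composition in the results on the 10 genes was not tested.

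Markers of other blood cells mostly overlapped between the groups. The exceptions were the dendritic cell sum, higher in PBS than in either treated group, and the B cell and eosinophil sums of PBS and OVA/LPS/GGsTop. Summed neutrophil genes were at 91.6 to 312.8, 135.0 to 252.4 and 139.7 to 282.4 FPKM, and eosinophil genes at 1.47 to 3.92, 1.33 to 8.24 and 4.49 to 9.40 FPKM, with Prg2 higher in both treated groups than in PBS. T cell genes were at 27.6 to 47.8, 21.9 to 86.8 and 17.9 to 29.7 FPKM, and thymus genes reached 44.8 FPKM in OVA/LPS/Vehicle 12 against at most 6.01 FPKM elsewhere. B cell genes were at 94.3 to 102.3, 35.7 to 99.6 and 32.3 to 62.7 FPKM, and dendritic cell genes at 46.1 to 54.1, 35.9 to 37.8 and 27.7 to 40.7 FPKM, with Ccr7 lower in both treated groups. Pan-leukocyte genes were at 130.9 to 172.4, 118.6 to 189.6 and 92.7 to 158.3 FPKM. Airway epithelial genes were at 30830 to 39000, 34590 to 52630 and 41870 to 48390 FPKM, so that this sum also separated PBS from OVA/LPS/GGsTop. Mitochondrial genes took 2.08% to 10.1% of all FPKM in PBS, 14.5% to 19.5% in OVA/LPS/Vehicle and 7.40% to 11.1% in OVA/LPS/GGsTop.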

How the data were processed

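Poly(A) RNA of mouse airway was sequenced, and the authors deposited FPKM per gene and library, made according to the submitters' notes with cutadapt 1.15, HISAT2 2.0.5, HTSeq 0.9.1 and build mm39. Identifiers were matched to GENCODE M21 for 21795 of 21899 genes. Where FPKM times exon length was divided by a single step per library, 97.6% of genes were whole within 0.05 in every library. voom on those fragments called 5372, 1180 and 318 genes where limma on FPKM called 5327, 1220 and 403.

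Groups were taken from the labels. Genes averaging 0.5 FPKM or more were tested as log2(FPKM + 1), in 1 fit of all 11 libraries, using limma 3.58.1 (R 4.3.3). The empirical Bayes step had a trend on mean level, p-values were two-sided and the adjustment was Benjamini-Hochberg. The fits were tested on simulated data. No member was below the filter, so the permutation test planned for such members was not needed. The GC correction subtracted, in each library, a natural spline (5 degrees of freedom) of the deviation from gene means on transcript GC content. A second form, which kept library means, was added after the count of calls under the first had been seen and compared with an earlier analysis of these data. Both are reported. Pairing by number was checked between PBS and OVA/LPS/GGsTop: deviations from group means correlated by 0.16, 0.62 and 0.40, while PBS 1 correlated by 0.42 with OVA/LPS/GGsTop 3.

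The members, gene lists and tests were chosen with earlier results of these data known. Besides the members, the text names the gene with the smallest p of each of 9 lists in each comparison, the 3 genes most like each member (1 of those for C1qb and C1qc is not reported here), and up to 3 markers of each cell type by mean level.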

Additional observations from a re-analysis of the deposited data

Results flagged for a closer look

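Of 74 groups of 4 libraries checked for a library far from the other 3, 10 had one, where chance gives about 1 in 20. Cd68 was at 56.1 FPKM in OVA/LPS/GGsTop 2, with the other libraries of its group between 35.9 and 38.2 FPKM. Cx3cr1 was at 2.24 FPKM in OVA/LPS/Vehicle 56, with the others between 3.12 and 3.20 FPKM. Nos2 was at 1.28 FPKM in OVA/LPS/GGsTop 4, with the others between 2.10 and 2.14 FPKM. Cd36 was at 334.6 FPKM in OVA/LPS/Vehicle 78, with the others between 389.7 and 393.6 FPKM.

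The other 6 were log2 ratios. OVA/LPS/Vehicle 56 stood above its group in the ratio of C1qa to C1qb (0.92, others 0.71 to 0.74), of C1qa to the identity genes (2.62, others 1.79 to 1.82) and of C1qb to the identity genes (1.70, others 1.08 to 1.09). OVA/LPS/GGsTop 4 stood above its group in the ratio to the identity genes of C1qa (1.94, others 1.46 to 1.54) and of Cd163 (−1.99, others −2.95 to −2.85), and OVA/LPS/Vehicle 78 in that of Cd163 (−2.79, others −3.08 to −3.05).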

How the results depend on the processing

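The calls on Csf1r and C1qa kept their direction under every alternative run. Array weights called 5, 1 and 3 members in OVA/LPS/Vehicle against PBS, GGsTop against vehicle and GGsTop against PBS. Between GGsTop and vehicle 0 were called with equal library medians or with either GC correction, and between GGsTop and PBS 1 was called with either GC correction, with or without the replicate block. Over all genes, the GC correction left 2904 calls of 5327 in OVA/LPS/Vehicle against PBS and 3001 with library means kept. For GGsTop against vehicle the 1220 calls became 698 with equal medians (344 higher, 354 lower, against 966 and 254), 5214 with array weights, 3525 with only the 2 groups fitted, 56 with GC correction (34 higher, 22 lower) and 313 with library means kept, the form chosen after the 56 had been seen. For GGsTop against PBS the 403 calls became 208 with no filter, 2557 with array weights, 39 with only the 2 groups, 609 with library means kept and 62 with the replicate block. The fits with the block also left out OVA/LPS/GGsTop 4 and all OVA/LPS/Vehicle libraries. With 1 library left out, members called ranged from 1 to 4, 0 to 1 and 0 to 1, and all genes called from 3064 to 6440, 24 to 3591 and 29 to 1597.

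Differences that changed sign were none of them called. For OVA/LPS/Vehicle against PBS, array weights gave Cd68 0.022 and Marco 0.35, and the GC corrections gave Mrc1 −0.11 and −0.090 (library means kept). For GGsTop against vehicle, array weights gave C1qa −0.027, C1qc −0.063 and Arg1 0.051. The GC corrections gave C1qa −0.18 and −0.16, C1qb −0.095 and −0.074, and C1qc −0.12 and −0.10. For GGsTop against PBS, Csf1r was 0.16 with array weights, 0.035 and 0.080 with the GC corrections, 0.046 with the replicate block and 0.10 and 0.13 with the block and each correction. With 1 library left out, the difference from PBS in OVA/LPS/Vehicle ranged from −0.18 to 0.36 for Cd163 and from −1.01 to 0.12 for Marco. That of GGsTop from vehicle ranged from −0.076 to 0.38 for Adgre1, −0.036 to 0.33 for C1qc, −0.29 to 0.22 for Arg1 and −0.089 to 0.31 for Mrc1, and that of Csf1r between GGsTop and PBS from −0.083 to 0.14. The replicate block moved no call on a member across the threshold. No block could be fitted for the comparisons with vehicle, whose libraries share no number with the others. The cause was not tested. Arg1 had 15 to 113 and Marco 6 to 167 fragments per library, the fewest of the members.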
